A study of Rattus norvegicus with 6 samples.

Results

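The 10 genes described here encode folding factors of the endoplasmic reticulum (ER) and regulators of its stress response. They are the chaperones Hspa5, Hsp90b1, Calr and Canx, the protein disulfide isomerases Pdia3, Pdia4 and Pdia6, and the stress-response genes Dnajb9, Xbp1 and Herpud1. They were chosen by name, for their function, from 16881 gene symbols in 17048 rows of the count tables. Earlier results of these data were known at that choice. All 10 passed the filter on low counts that left 7729 rows for testing. The cells were wild-type (WT) rat neural stem/progenitor cells (NSPCs), grown for 24 h in stemness-maintaining medium on carbon films of “High”, “Medium” or “Low” electrical conductivity, with 2 libraries per film. The NSPCs were a primary embryonic culture, and every film combined carbon nanotubes with nanoribbons of graphene oxide and was coated with poly-D-lysine and laminin. The paper set conductivity by the duration of oxidation, and adjusted the poly-D-lysine so that laminin was similar between films. Conductivity and oxidation therefore cannot be told apart in a comparison between films. The paper's methods list the same poly-D-lysine concentration for High and Low and a smaller one for Medium. In comparisons that include Medium, this coating cannot be told apart from them either. No library from cells on a non-carbon surface and none from cells with induced ER stress was analysed here. The labels do not say that the libraries of a film came from separate cultures, so p-values measure the spread between these samples, which may be technical.

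Proteins that enter the ER are folded by chaperones, which hold unfolded chains, and by disulfide isomerases, which form and rearrange disulfide bonds. When unfolded proteins accumulate, the membrane sensors IRE1, ATF6 and PERK start the unfolded protein response (UPR). IRE1 splices Xbp1 mRNA into the form that encodes an active transcription factor, ATF6 is cut to release another, and PERK slows translation while favouring ATF4. XBP1 and ATF6 are known to raise ER chaperone genes, whereas ATF4 raises genes for amino acid supply, redox balance and, through Ddit3, cell death. Secretory and fast-growing cells, neural progenitors among them, keep ER chaperones at a high basal level.

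The DNA that links these genes is the ER stress response element (ERSE), CCAAT and CCACG separated by 9 bases, which NF-Y and ATF6 are known to bind. It is shown because chaperone genes and the gene of a transcription factor both carry it. The members were chosen in part as XBP1 or ATF6 targets, so the share of them with this element is partly set by that choice and is given as a description. RefSeq promoters of the rat build GRCr8, from 250 bases before to 50 bases after the gene start, were searched on both strands, and 8 of the 10 members had an entry (Pdia3 and Pdia6 had none). The windows below run 5′ to 3′ on the gene's strand with the element in capitals and 12 bases on either side. In Calr and in the second Hsp90b1 window the element lies on the opposite strand, and so reads reverse-complemented.
Hspa5, chr3:38452961-38453003, plus strand: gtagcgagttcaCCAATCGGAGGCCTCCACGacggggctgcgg
Hsp90b1, chr7:23012439-23012481, minus strand: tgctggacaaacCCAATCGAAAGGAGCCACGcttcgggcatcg
Hsp90b1, chr7:23012335-23012377, minus strand: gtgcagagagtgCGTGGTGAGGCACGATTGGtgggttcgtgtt
Calr, chr19:40213123-40213165, plus strand: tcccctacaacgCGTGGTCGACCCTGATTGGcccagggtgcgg
Canx, chr10:35158057-35158099, minus strand: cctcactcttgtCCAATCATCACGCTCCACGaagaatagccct
Xbp1, chr14:84604546-84604588, plus strand: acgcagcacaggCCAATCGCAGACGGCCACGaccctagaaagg

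The ERSE was present in 5 of 8 member promoters (62.5%), against 22 of 33469 promoters in the table (0.0657%). It began 43 bases before the start in Hspa5 and 65 bases before it in Xbp1. Of the other lists, 3 of 38 promoters of further ER folding genes (7.89%) and 1 of 45 promoters of degradation and translocation genes (2.22%) held it, and it was in 0 of 23 promoters of the ATF4 branch and 0 of 16 of the cytosolic heat shock genes. Herpud1 instead held the related ERSE-II (ATTGG and CCACG with 1 base between them), which 17 of the 33469 promoters hold (0.0508%). The ERSE and ERSE-II share the CCACG letters. The Herpud1 promoter also held the core TGATGNAA of the element that ATF4 binds, which 1332 promoters hold (3.98%), on the opposite strand in the second window shown here.
Herpud1, ERSE-II, chr19:10614809-10614843, minus strand: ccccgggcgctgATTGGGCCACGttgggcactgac
Herpud1, ATF4 core, chr19:10614872-10614903, minus strand: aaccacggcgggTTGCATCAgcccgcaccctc

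None of these 3 elements was found in the Pdia4 and Dnajb9 windows, and the core TGACGTGG of the UPR element, to which XBP1 binds, was in 0 of 8 member promoters and 199 of all promoters (0.595%). A match describes the letters in these windows, and binding was not measured.

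The libraries held 5124863 to 6213676 counts, of which 25.9% and 38.3% were ribosomal RNA on the High film and 6.90% to 12.8% on the others. Levels below are CPM, counts brought to a common library total after scaling by the trimmed mean of M-values (TMM). With the ribosomal rows left out, 0 members were called between Low and Medium together and High, and the median log2 fold change of the members was -0.60, beside -0.58 with them. The reads were 3′ tags, for which counts do not scale with transcript length, and they do not separate spliced from unspliced Xbp1. Of 7 NSPC markers, 6 were counted (Hes5 was at 0), and their summed level ran from 2580 to 2870 CPM on High and from 3620 to 4710 CPM on Medium and Low. Most of that sum was Vim, and Fabp7 and Hes1 had negative log2 fold changes between Low and Medium together and High (-0.60 and -0.82). Summed astrocyte markers ran from 153 to 188 CPM on High and from 201 to 380 CPM on the others (Aqp4 and Aldh1l1 at 0). Slc1a3 made up most of this sum, at 138 and 116 CPM on High and from 173 to 327 CPM elsewhere. S100b had a log2 fold change of 0.07, and Gfap was counted in the first High library only, at 70 counts. Oligodendrocyte lineage markers ran from 326 to 357 CPM on High and from 510 to 748 CPM on the others (Sox10 at 0). Neuron markers summed to 33.9 and 29.7 CPM on Low and to at most 12.4 CPM elsewhere (Rbfox3 at 0). Tubb3 was counted on Low only, at 96 and 72 counts, and Stmn2 in the first High library only, at 60 counts. Microglia markers reached at most 37.7 CPM (Cx3cr1, Csf1r and Itgam at 0), and all 5 choroid plexus markers were at 0. Meningeal and vascular markers lay at 35.8 CPM or lower except in the second Medium library, at 392 CPM, with 5 of 8 at 0. The part of these marker differences in the results was not tested. In bulk RNA, fewer cells of a type and less RNA per cell cannot be told apart.

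ER chaperone mRNAs were abundant on all 3 films, and none of the 10 genes passed the test in any comparison of films. Between Low and Medium together and High, 0 of 10 passed an adjusted p of 0.05 (quasi-likelihood test of edgeR, adjusted by Benjamini-Hochberg over all genes tested), against 10 of 7729 genes, or 0.129%, in the whole table. At an unadjusted p under 0.05 there were 2 members (Hsp90b1 and Dnajb9), both lower, against 5.5% of all genes. DESeq2 called 1 member (Dnajb9), where it called 5.37% of the genes it gave an adjusted p, and limma-voom called 0 members and 0.298% of all genes. The fitted log2 fold change was negative for 9 of 10 members, with Pdia6 the exception. Without Pdia4 and Hspa5, whose directions are not read below, it was negative for 7 of 8. Those 7 include Dnajb9, which passed the filter on low counts only through High, so that its sign was fixed in advance. They also include Pdia3, whose sign turned with scaling by library size alone. The member median was -0.58 against -0.12 over all genes tested. With scaling by library size alone the fold change was negative for 7 of 10, with a median of -0.16 against 0.26 over all genes. The gap between these medians, -0.46, depended on single libraries. Without the second Medium library the median of all genes moved to -0.63, with the members at -0.57. Without the first Low library the members moved to -0.34, with all genes at -0.15, and without the first High library the gap was -0.87.

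Hspa5 encodes BiP, the ER Hsp70 that binds unfolded chains and holds the UPR sensors inactive. It was the most abundant member and stood at 1080 and 1040 CPM on High, 853 and 863 CPM on Medium, and 746 and 1060 CPM on Low. The first Low library was the lowest and the second reached the High libraries, so the groups overlapped. The level had a coefficient of variation of 14.7% over the 6 libraries and ranked 99 from the steadiest of 7729 genes, while ranking 129 by level. Its log2 fold change between Low and Medium together and High was -0.27 (SE 0.226), with a 95% interval from -0.776 to 0.233 (adjusted p = 0.886, edgeR). With scaling by library size alone the sign turned, to 0.12, so no direction is given for Hspa5.

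Hsp90b1, which encodes the ER Hsp90 GRP94, varied most among the members counted in every library. It stood at 595 and 123 CPM on High, 172 and 148 CPM on Medium, and 132 and 26.4 CPM on Low. The first High library was 4.83 times the second, and the second Low library lay far below all others, so the libraries of a film spread as widely as the film means. The log2 fold change between Low and Medium together and High was -1.68 (SE 0.700, adjusted p = 0.801, edgeR). The value depended on single libraries: it was -2.40 (adjusted p = 0.0103) without the second High library, -2.47 (adjusted p = 0.00554) without the first Low library and -0.13 (adjusted p = 1) without the first High library. The first of these fits called 0.385% of all genes and the second 0.689%.

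Calr encodes calreticulin and Canx calnexin, the soluble and the membrane-bound lectin chaperones of glycoprotein folding. Calr stood at 696 and 631 CPM on High, 340 and 464 CPM on Medium, and 539 and 635 CPM on Low. Both Medium libraries lay below all 4 others, and the second Low library lay between the High libraries. The share of all genes with Medium below all others was not counted. Between Medium and High the log2 fold change of Calr was -0.72 (SE 0.306), with an unadjusted p of 0.0398 (4.04% of all genes were under 0.05) and an adjusted p of 0.908 in edgeR. In that comparison 0 of 10 members were called, against 0.0129% of all genes (1 gene). DESeq2 called 1 member, Calr, and 4.22% of all genes.

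Canx stood at 663 and 716 CPM on High, 557 and 386 CPM on Medium, and 271 and 536 CPM on Low. All 4 Low and Medium libraries lay below both High libraries, which held for 2 of 10 members (Canx and Dnajb9) and for 10.1% of all genes tested. No member had all 4 libraries above both High libraries, which held for 8.06% of all genes. The level of Canx in Low and Medium was 0.632 times that on High, a log2 fold change of -0.66 (SE 0.322, 95% interval -1.38 to 0.0559, adjusted p = 0.801, edgeR).

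**Figure D1:**
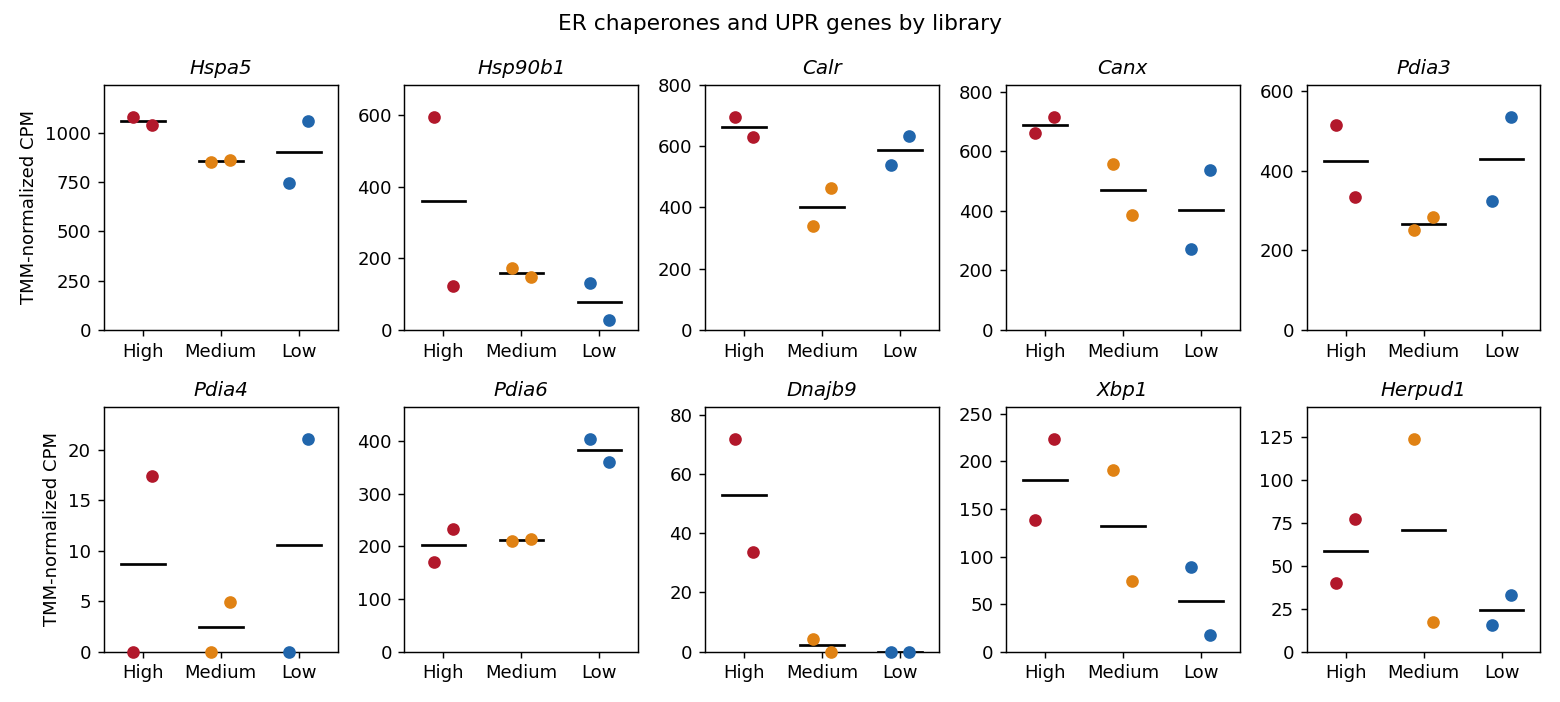
TMM-normalized CPM (vertical axis, from 0, a different scale in each panel) of the 10 genes in each library (points) by carbon film, with the film mean as a bar. The libraries of 1 film lie close together for Hspa5 on High and Medium and far apart for Hsp90b1 on High (595 and 123 CPM) and Herpud1 on Medium (124 and 17.1 CPM).

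The 3 isomerases differed from each other in their pattern over the films. Pdia3 (ERp57), which works on glycoproteins bound by calnexin and calreticulin, stood at 514 and 334 CPM on High, 250 and 284 CPM on Medium, and 325 and 535 CPM on Low. The Low libraries spanned the High libraries, and the difference of Low from High was 0.02 on the log2 scale (95% interval -0.849 to 0.893). Between Low and Medium together and High the log2 fold change was -0.32 (SE 0.335, adjusted p = 0.950, edgeR), and it was 0.05 with scaling by library size alone.

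Pdia6 (P5), an isomerase that binds BiP and the sensor IRE1, stood at 171 and 233 CPM on High, 211 and 214 CPM on Medium, and 405 and 361 CPM on Low. Both Low libraries lay above all 4 others, a pattern whose share over all genes was not counted. The level on Low was 1.90 times that on High, a log2 fold change of 0.92 (SE 0.413, 95% interval 0.00476 to 1.84), with an unadjusted p of 0.0490 and an adjusted p of 0.899 in edgeR. Between Low and High, 0 of 10 members were called, against 0.0518% of all genes (4 genes), and 3 members had an unadjusted p under 0.05, namely Hsp90b1, Pdia6 and Dnajb9, against 4.27% of all genes. DESeq2 called 1 of them, Dnajb9, and 4.39% of all genes. Between Low and Medium the log2 fold change of Pdia6 was 0.85 (SE 0.412, adjusted p = 1, edgeR).

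Pdia4 (ERp72), an isomerase with several thioredoxin-like domains, had 0 counts in the first library of every film and 73, 30 and 126 counts in the second library of High, Medium and Low. Its level therefore separated the libraries by number and not by film. The same pattern, 0 counts in all 3 first libraries and at least 30 in all 3 second ones, was found in 29 of 7729 rows, and the reverse in 2. A fold change of Pdia4 between films has no meaning at these counts.

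Dnajb9 (ERdj4), a co-chaperone of BiP that an XBP1-driven response is known to raise, was counted almost only on High. It had 349 and 141 counts on High, 25 and 0 on Medium, and 0 and 0 on Low, or 71.9 and 33.6 CPM on High and at most 4.29 CPM elsewhere. The High libraries lay above all others, as they did for 10.1% of all genes tested. The level on Low was 112-fold lower than on High with 3 counts per library taken as the floor of Low. This floor covers counting error only and not a gene missed in a library. Of 8043 rows with a count on Low, 1408 had 0 counts in either library and at least 50 in the other. On Medium the number was 2084 and on High 1420. The first Medium library had the fewest rows with a count, 5355, against 6689 to 7809 in the others. The same limit applies to the other genes given at 0 below. The difference between Low and Medium together and High had an unadjusted p of 0.0354 and an adjusted p of 0.801 in edgeR, and DESeq2 gave an adjusted p of 0.0499. Dnajb9 entered the test through the High libraries, where it was counted, so its place among the lower members is a description.

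Xbp1, the gene of the transcription factor that IRE1 activates, stood at 138 and 224 CPM on High, 191 and 74.0 CPM on Medium, and 88.8 and 17.6 CPM on Low. Both Low libraries lay below both High libraries, an order whose share over all genes was not counted. The Low libraries differed 5.04-fold from each other. Between Low and High the log2 fold change was -1.76 (unadjusted p = 0.0855, edgeR), and between Low and Medium together and High it was -1.11 (SE 0.752, 95% interval -2.78 to 0.571, adjusted p = 0.803, edgeR). The latter was -1.90 without the first Low library, -0.73 without the second Low library and -0.71 without the second High library. Herpud1, a membrane protein of the complex that returns misfolded proteins to the cytosol for degradation (ERAD), stood at 40.2 and 77.5 CPM on High, 124 and 17.1 CPM on Medium, and 15.8 and 33.1 CPM on Low. The Medium libraries were the highest and nearly the lowest of the 6 and differed 7.29-fold, and the log2 fold change between Low and Medium together and High was -0.50 (SE 1.31, adjusted p = 1, edgeR).

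**Figure D2:**
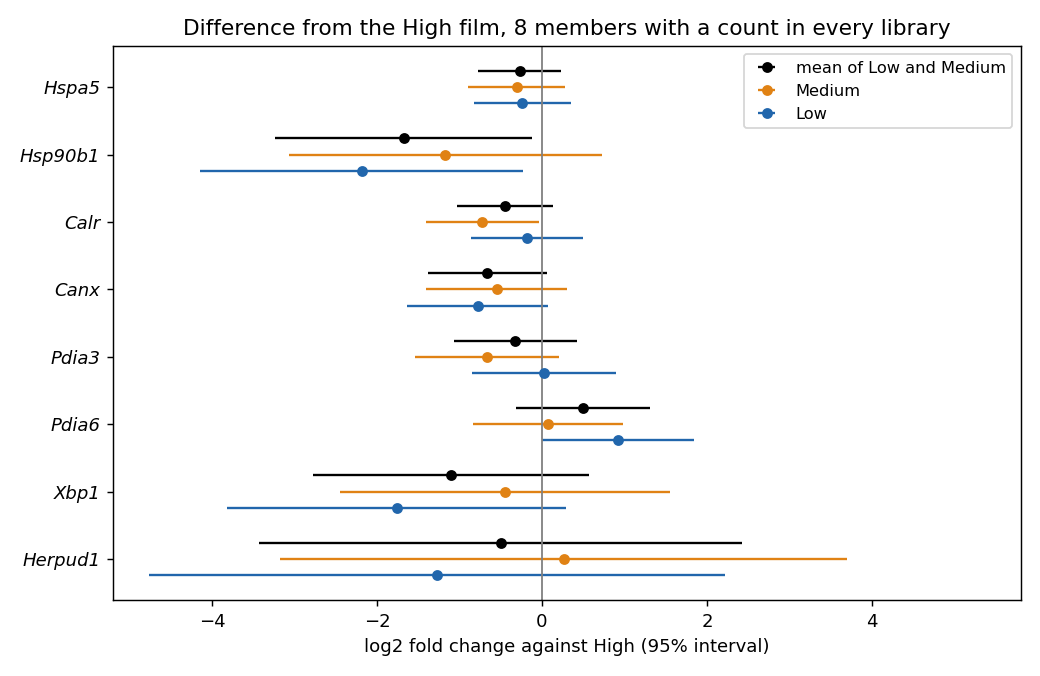
Log2 fold change from the High film (points) with the 95% interval of the edgeR fit (lines) for the 8 members counted in every library, for Low and Medium together, Medium and Low. Most intervals cross 0, the exceptions being Hsp90b1 for Low and for Low and Medium together, Calr for Medium and Pdia6 for Low, none of which passed after adjustment over all genes.

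Between Low and Medium, 0 of 10 members were called, against 0% of all genes, and 0 members had an unadjusted p under 0.05 in edgeR, against 1.51% of all genes. DESeq2 called 0 members and 1.59% of all genes, and limma-voom called 0 members. The fitted log2 fold change was positive for 5 members and negative for 5. The comparisons of Low with High and of Medium with High share the High libraries, so their member medians of -0.51 and -0.61, beside 0.02 and -0.06 over all genes, are not independent of each other. Without the second Low library the median for Low was -1.18, and without the second Medium library the median for Medium was -0.57 beside -0.77 over all genes.

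Summed over the 10 genes, the libraries held 3969 and 3432 CPM on High, 2701 and 2454 CPM on Medium, and 2522 and 3223 CPM on Low. Both High libraries were the highest. The mean of the Low and Medium libraries was 0.736 times that on High (p = 0.133, exact two-sided permutation test over 4 and 2 libraries, the smallest p this design allows). For the 7 chaperones and isomerases the ratio was 0.758 (exact two-sided permutation p = 0.267), and for Dnajb9, Xbp1 and Herpud1 it was 0.484 (exact two-sided permutation p = 0.267). Hspa5 took between 27.2% and 35.2% of the summed level in each library.

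The members did not vary as a block across the 6 libraries. Calr and Pdia3 had a Pearson correlation of log2 CPM of 0.839 and Hspa5 and Canx of 0.864, whereas Hsp90b1 had a correlation of -0.02 with Hspa5 and of -0.73 with Pdia6. These values describe 6 libraries that share the film contrast and the scaling, and with 6 points they are no test. Among 3218 genes with a mean log2 CPM of at least 5, the genes whose levels were most like those of Hspa5 were Wdr70 (0.965), Mrpl45 (0.963), Klf10 (0.962), Gba2 (0.958) and Glrx3 (0.954). By the same measure Canx ranked 49, Pdia3 212, Calr 309, Herpud1 803, Hsp90b1 1615, Xbp1 1824 and Pdia6 2382, and Pdia4 and Dnajb9 were too low to be ranked.

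The genes that surround the members in the ER had few calls, as had the whole table. Of 40 further ER folding genes 34 were tested. In edgeR 0 were called between Low and Medium together and High, against 0.129% of all genes. DESeq2 called 3 of them, where it called 5.37% of all genes. P4hb, the founding disulfide isomerase, stood at 510 and 556 CPM on High, 183 and 264 CPM on Medium, and 479 and 392 CPM on Low, and its log2 fold change was -0.77 (SE 0.293, adjusted p = 0.801, edgeR). Serpinh1, the collagen chaperone, had a log2 fold change of -0.65 (adjusted p = 0.778, edgeR), and the calcium-binding Rcn1 and Calu had -0.42 and 0.31. Fkbp11, a prolyl isomerase of secretory cells, had 0 and 9 counts on High and between 154 and 548 on the other films (adjusted p = 0.801, edgeR), and the ER chaperone Erp29 had a log2 fold change of 2.03 (unadjusted p = 0.132, edgeR). The list had 16 positive and 18 negative fold changes and a median of -0.03, where the median of the members was -0.58. With scaling by library size alone, 24 in the list were positive.

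Of 50 ERAD and translocation genes 47 were tested and 0 were called in edgeR, against 0.129% of all genes, with a median of -0.11. DESeq2 called 6, against 5.37% of all genes, and leaving out the second Medium library gave 3 in edgeR, against 2.79% of all genes. Spcs1, a subunit of the signal peptidase that trims proteins on entry to the ER, stood at 251 and 316 CPM on High, 1050 and 514 CPM on Medium, and 637 and 631 CPM on Low. Both High libraries were the lowest of the 6, as they were for 8.06% of all genes tested (log2 fold change 1.31, SE 0.338, adjusted p = 0.468, edgeR). Sec63, which recruits BiP to the translocation channel, had a log2 fold change of 1.38 and the channel subunit Sec61g of 0.35. Vcp, the ATPase that pulls proteins out of the ER, had -0.65, and Sel1l, the scaffold of an ERAD ligase, had 58 and 178 counts on High and 0 in the other libraries. None of these had an adjusted p under 0.05.

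Of 18 UPR sensors and regulators 13 were tested and 0 were called, against 0.129% of all genes in edgeR. Ern1 and Atf6, the genes of IRE1 and ATF6, were counted in the first Low library only, at 131 and 265 counts, and were not tested. Eif2ak3, the gene of PERK, had 162 and 100 counts on High, 11 and 224 on Medium, and 83 and 6 on Low, so its libraries overlapped between all films. Bax, Tmbim6 and Nfyb, the tested genes of the list with the largest mean counts, had log2 fold changes of -0.17, 0.47 and 0.38, and Bak1, Rtcb and Creb3l2 did not pass either.

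The ATF4 branch holds Atf4 and genes known to follow it, and whether PERK was active was not measured. Of its 30 genes 28 were tested, and 0 were called in edgeR, against 0.129% of all genes. An unadjusted p under 0.05 in edgeR was given to 8, all of them lower on Low and Medium, against 5.5% of all genes. Some of the 8, Atf3 among them, entered the test only through the High libraries, so that their sign was fixed in advance. The count of calls was 3 in DESeq2 (5.37% of all genes), 2 in limma-voom (0.298%), 5 with no filter on low counts (0.711%) and 4 with a mean count of at least 10 (0.661%). It ran from 2 to 9 when each library was left out in turn, with 9 without the second Medium library (2.79%). Its median log2 fold change was -0.91 beside -0.12 over all genes, a gap of -0.79. Without the first High library it was -0.44 with all genes at 0.32, a gap of -0.76. Without the first Medium library it was -0.52 with all genes at -0.04, a gap of -0.48. The summed level was 5530 and 4570 CPM on High, 2400 and 3360 CPM on Medium, and 2190 and 2550 CPM on Low. Slc3a2, the heavy chain of amino acid exchangers, stood at 1160 and 576 CPM on High and between 150 and 245 CPM elsewhere (log2 fold change -2.13, SE 0.357, adjusted p = 0.0781, edgeR). Atf3, a transcription factor induced by ATF4, had 991 and 291 counts on High and 0 in all 4 other libraries (adjusted p = 0.116, edgeR). Atf4 mRNA itself overlapped between films, at 410 and 338 CPM on High, 187 and 453 CPM on Medium, and 136 and 383 CPM on Low. Gars, Psat1 and Gpt2, which serve amino acid metabolism and tRNA charging, did not pass, and Gpt2 was counted in 2 libraries only.

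In the cytosolic heat shock list, which serves folding outside the ER, 19 of 21 genes were tested. In edgeR 1 was called, against 0.129% of all genes. The count was 5 in DESeq2 and 7 without the second Medium library, and 4 with no filter and with a mean count of at least 10, beside the same shares of all genes as above. Hspa1b, the stress-inducible Hsp70, fell from 1010 and 601 CPM on High to between 2.92 and 32.5 CPM on Medium and Low (log2 fold change -5.30, SE 0.721, adjusted p = 0.0278, edgeR). Hsp90aa1 and Hsp90ab1, the cytosolic relatives of Hsp90b1, had log2 fold changes of -1.20 (adjusted p = 0.0781) and -1.02 (adjusted p = 0.0805) in edgeR. Hspa4 had -0.18, and Fkbp4 and Dnajb6 had 0.86 and 1.31. The list's median log2 fold change was -0.88. Its summed level was 11000 and 11400 CPM on High and between 5840 and 6490 CPM on the other films.

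**Figure D3:**
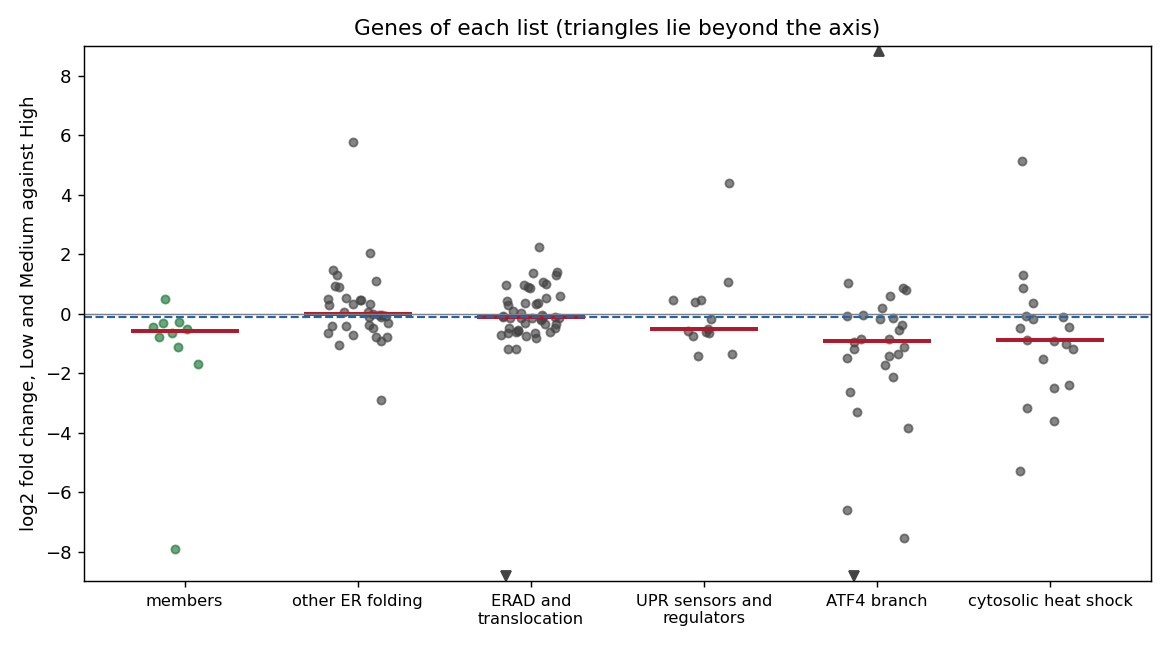
Log2 fold change between Low and Medium together and High for each tested gene (points) of the 10 members and 5 other lists, with the list median as a red bar and the median of all 7729 genes as a blue dashed line. The medians run from -0.91 in the ATF4 branch and -0.88 in the cytosolic heat shock list to -0.03 in other ER folding, with the members at -0.58.

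Ratios of summed levels within a library do not depend on the scaling between libraries. The members stood at 0.348 and 0.313 of the cytosolic heat shock level on High, 0.462 and 0.392 on Medium, and 0.407 and 0.497 on Low, with both High libraries the lowest of the 6 (p = 0.133, exact two-sided permutation test). Against the ATF4 branch the ratio was 0.718 and 0.750 on High, 1.123 and 0.7301 on Medium, and 1.152 and 1.265 on Low, where the second Medium library lay between the High libraries (p = 0.267, exact two-sided permutation test). Against the other ER folding genes it was 0.640 and 0.614 on High and from 0.448 to 0.670 on the other films (p = 0.4, exact two-sided permutation test).

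**Figure D4:**
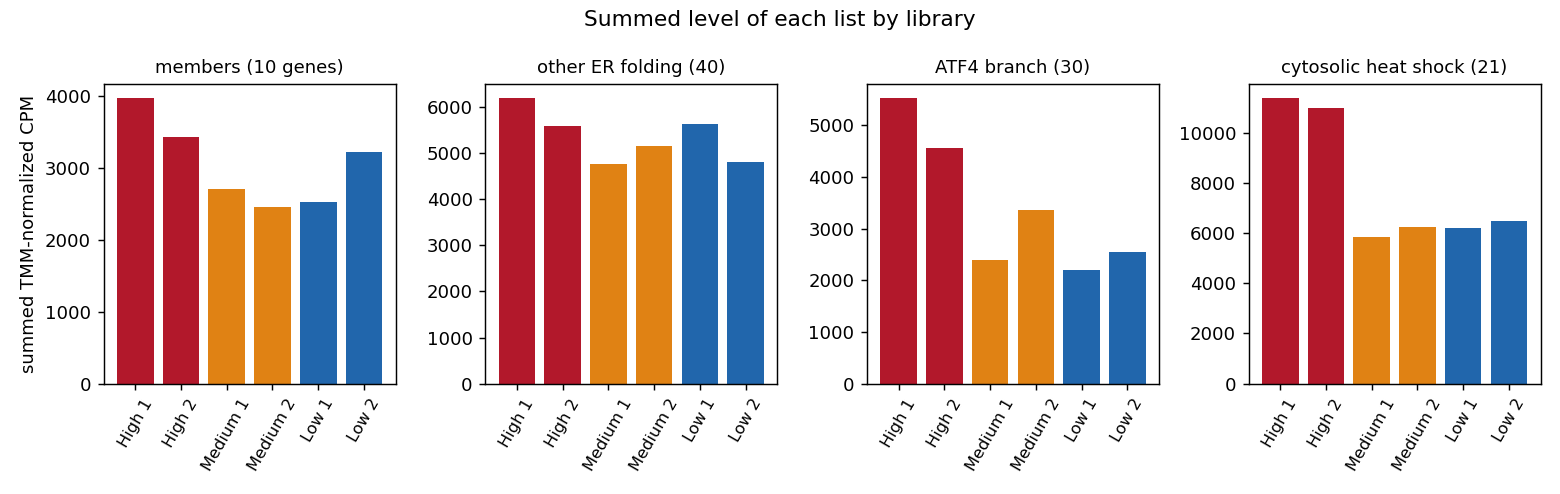
Summed TMM-normalized CPM (bars from 0, a different scale in each panel) in each library for the members, other ER folding genes, the ATF4 branch and cytosolic heat shock genes. Both High libraries are the highest for the members, the ATF4 branch and the heat shock genes, and for heat shock they stand at 11000 and 11400 CPM against at most 6490 CPM.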

How the data were processed

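Total RNA of NSPCs was made into QuantSeq 3′ libraries, 2 for each of 3 films (6 in all). The deposited values are whole-number read counts per gene that the authors obtained with Bowtie2 and Bedtools coverage, from unique and multiple alignments. Per the labels the genome build was rn6, and the annotation and tool versions are not given in the sources used here. Multiple alignments can add reads to genes with near-identical copies. No column of another sample was present. Counts were analysed in R 4.3.3 with edgeR 4.0.16 (filterByExpr, TMM, glmQLFit and glmQLFTest on 3 group means over all 6 libraries, 7729 rows, Benjamini-Hochberg, threshold 0.05). The common dispersion was 2.04 and the residual degrees of freedom 3, and the code was tested on simulated counts. Standard errors and 95% intervals came from the quasi-likelihood F. Alternatives were DESeq2 1.42.0, limma 3.58.1 (voom), other scalings and filters, a replicate block and leaving out each library. Sums of levels were compared by exact permutation. A floor of 3 counts per library bounds folds against 0, and intervals and floors cover counting error only where they rest on counts.

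The members and lists were chosen with earlier results of these data known. Besides all members, the text names from each other list the genes with an adjusted p under 0.05, the 3 with the largest mean count and, in each direction, the 2 with the smallest p for Low and Medium against High, and the 5 genes most like Hspa5. Ern1, Atf6 and Eif2ak3 were named outside that rule, after their values were seen, since the UPR begins with them. Promoter letters are RefSeq's, in GRCr8, a build other than rn6, and were matched by symbol. Protein sequences were not used here.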

Additional observations from a re-analysis of the deposited data

How the results depend on the processing

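Each film had 2 libraries and the common dispersion was 2.04, and the low counts of Pdia4 and Dnajb9 limit any statement on them. No member was called in any of the 4 comparisons with other scalings in edgeR, with other filters, or with limma-voom, nor in the 3 comparisons of single films fitted with the groups compared alone. DESeq2 called 1 member for Low and Medium against High, 1 for Low against High (Dnajb9 in both) and 1 for Medium against High (Calr). With library sizes alone, the member median log2 fold change was -0.161 for Low and Medium against High, -0.101 for Low and -0.228 for Medium, where the medians of all genes were 0.261, 0.419 and 0.291, and the log2 fold change was 0.121 for Hspa5 and 0.0487 for Pdia3. These moves came with the change of scaling, which shifts all genes together. Library sizes include ribosomal RNA, which was 25.9% and 38.3% of counts on High and 6.90% to 12.8% on the others. The part of that share in the moves was not tested. Leaving out 1 library in turn, members called ranged from 0 to 1 for Low and Medium against High and from 0 to 1 for Low against High, the call being Hsp90b1 without High replicate 2 or Low replicate 1, while calls over all genes ran from 34 to 242 and from 19 to 65. The member median for Low against High ranged from -1.18 (without Low replicate 2) to -0.214 (without Low replicate 1). The log2 fold change for Low and Medium against High ranged from -0.601 to 0.0224 for Pdia3, from -5.21 to 7.93 for Pdia4 and from -1.52 to 0.0488 for Herpud1. The cause was not tested. Of 150 alternative values of single members, 142 kept their direction and side of the threshold. The 150 include those of Dnajb9, whose sign was fixed in advance, and of Pdia4, whose fold change has no meaning. Where few genes are called, most values stay on the same side, so this count does not measure robustness. Same-numbered libraries did not deviate together over all genes (correlations of their deviations 0.00333, -0.000345 and 0.0122). These correlations cannot show whether the numbers mark a shared batch, and the labels do not say. The pattern of Pdia4 was found in 29 rows and the reverse in 2. With a replicate block, 0 members were called in all 4 comparisons, the member median for Low and Medium against High was -0.533, and 57 genes of the whole table were called against 10 without it. The block gave 4 calls in the ATF4 branch, against 0 without it, and 4 in the cytosolic heat shock list, against 1.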

Other observations

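Beyond the members, 7 tested genes held the ERSE in their RefSeq promoter, and their log2 fold changes between Low and Medium together and High ran in both directions. Birc5, an inhibitor of apoptosis needed in cell division, had 1.72 and Creld2, a secreted ER stress protein, had 0.90, whereas Dnajc3, a BiP co-chaperone, had -2.89 and Zfand2a, a stress-inducible zinc finger protein, had -2.61. Ankmy2 had -0.52, Ppm1l -0.57 and Hnrnpa3 -0.10, and none of the 7 had an adjusted p under 0.05 in edgeR. Of genes with the ERSE-II, Dnajb11, another BiP co-chaperone, had -1.06 and Hyou1, the nucleotide exchange factor of BiP, had 0.33, neither with an adjusted p under 0.05. These genes were named after their values were seen.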
